A study of Homo sapiens with 6 samples.

Results

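Transcripts of the insulin-like growth factor (IGF) system were examined in the established human teratocarcinoma line PA1, which derives from the ovary, after small interfering RNA (siRNA) against the transcription factor SOX2. The set comprised 10 of the 59653 gene symbols in the count table: the imprinted pair H19 and IGF2, the receptor genes IGF1R, IGF2R and INSR, and the binding protein genes IGFBP2, IGFBP3, IGFBP4, IGFBP5 and IGFBP6. They were chosen by name, with H19 and IGF2 selected on their higher counts after SOX2 siRNA, so the group differences of all 10 are given as a description, without a test. Control cells received a negative control siRNA and the others siRNA to SOX2, with 3 libraries in each group. All cells were wild type, were transfected while attached and, 24 h later, were kept on poly-HEMA, a coating that prevents attachment, for 72 h before RNA extraction. The labels name 2 SOX2 siRNAs without saying whether they were pooled. They do not say that the libraries of a group came from separate cultures, so the spread between libraries may be technical.

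IGF2 is a fetal growth factor that signals through the tyrosine kinase receptor IGF1R and through one form of the insulin receptor INSR, and it is removed from the cell surface by IGF2R, which passes it to lysosomes. Secreted binding proteins hold IGFs in the surrounding fluid and release them when proteases cleave them. IGF2 and the non-coding RNA H19 lie side by side on chromosome 11, are usually expressed from the paternal and maternal copy respectively, and share enhancers whose access is set by a methylated control region bound by CTCF.

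Total counts ranged from 25152313 to 32753184 per library, where 3 counts correspond to 0.0909 to 0.120 CPM (depth-scaled counts), a floor that covers counting error only. SOX2 itself was at 245, 265 and 256 CPM in control replicates 1 to 3 and at 51.8, 54.9 and 50.6 CPM in the SOX2 siRNA replicates, leaving 20.5% of the control level. Among 10 listed markers of embryonal carcinoma cells, POU5F1, LIN28A, LIN28B, SALL4 and PODXL were each above 100 CPM in both groups. The 10 summed to 2685 to 2742 CPM in control and 2648 to 2707 CPM in SOX2 siRNA libraries, mostly from PODXL and LIN28A. These sums hold changes in opposite directions, with 3 of the 9 tested markers higher and 1 lower. PODXL, a surface sialomucin gene, fell from 1316 ± 15.03 CPM with control siRNA to 671 ± 25.1 CPM (SD, n = 3; log2 fold change -0.97, adjusted p = 9.54e-13 by edgeR), while LIN28A, LIN28B and POU5F1 rose by 0.70, 0.59 and 0.17 on the log2 scale. EPCAM (2.09 CPM in both groups), CDH1 (1.29 and 1.37 CPM), L1TD1 (1.79 and 1.64 CPM) and DPPA4 (3.05 and 2.34 CPM) were low. TDGF1 was under the floor on average. In bulk RNA, fewer cells that express a gene and less RNA per cell cannot be told apart.

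The sequences that place this set are those of the H19 locus. GENCODE 29 puts H19 at chr11:1995176-2001470 and the IGF2 symbol at chr11:2129112-2158658 on the GRCh38 primary assembly, both on the minus strand and 127.6 kb apart. H19 is the host of the microRNA gene MIR675, whose hairpin lies in exon 1 of the longest H19 transcript (5 exons, 2348 bases). The 2 mature products, from RefSeq (GRCh38.p14, chr11:1996800-1996822 and chr11:1996768-1996787), are shown because they are a part of H19 with known targets. The seed (bases 2 to 8) is in capitals.
hsa-miR-675-5p: uGGUGCGGagagggcccacagug
hsa-miR-675-3p: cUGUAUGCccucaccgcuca
The seeds differ, so the arms address different target sites. MIR675 itself had 0 counts in each library, and a polyadenylated RNA library does not capture mature microRNAs, so H19 counts report the host transcript alone.

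Among the 9 coding members, letters that match a miR-675 seed occurred in the 3′ UTR of IGF1R alone, at 2 places for the 3p arm and none for the 5p arm. IGF1R is the member for which repression by miR-675 has been described. The windows below, 5′ to 3′ with the match GCATACA in capitals, begin 11 bases before positions 1186 and 6196 of its 7088-base 3′ UTR.
IGF1R first match: atgaaacatttGCATACAcatcgtcttta
IGF1R other match: tgatgattacaGCATACAcagtgatcaca
Of 667 annotated 3′ UTRs of similar length, 25.5% held GCATACA, so the match is common at this length. These letters are a description and not a measured site.

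Start regions from RefSeq (250 bases before to 50 bases after the start, GRCh38.p14) were found for 9 of the 10 members, 11 regions in all; IGF2 had no entry. Those of the 3 members with the largest differences that had one are shown with CpG dinucleotides in capitals, since these are the sites of DNA methylation. They are H19 (chr11:2001217-2001516, minus strand), IGFBP5 (chr2:216695500-216695799, minus strand) and IGFBP4 (chr17:40443200-40443499, plus strand). The H19 region does not lie at the start of the longest H19 transcript, which begins farther downstream. In that transcript the MIR675 hairpin (chr11:1996759-1996831) starts at base 1045, in exon 1. The H19 letters and CpG count below therefore belong to another, upstream start.
H19: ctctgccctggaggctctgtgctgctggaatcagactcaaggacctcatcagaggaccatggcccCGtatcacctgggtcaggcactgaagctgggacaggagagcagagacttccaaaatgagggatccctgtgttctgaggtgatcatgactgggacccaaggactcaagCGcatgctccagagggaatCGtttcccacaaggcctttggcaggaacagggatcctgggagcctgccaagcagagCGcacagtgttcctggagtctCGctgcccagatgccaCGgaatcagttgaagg
IGFBP5: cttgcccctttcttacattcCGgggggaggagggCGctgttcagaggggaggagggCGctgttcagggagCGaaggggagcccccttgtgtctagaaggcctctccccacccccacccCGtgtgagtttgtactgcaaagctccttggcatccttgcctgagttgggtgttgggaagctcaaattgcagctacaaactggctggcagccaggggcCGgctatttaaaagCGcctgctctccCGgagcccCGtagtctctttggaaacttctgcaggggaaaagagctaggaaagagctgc
IGFBP4: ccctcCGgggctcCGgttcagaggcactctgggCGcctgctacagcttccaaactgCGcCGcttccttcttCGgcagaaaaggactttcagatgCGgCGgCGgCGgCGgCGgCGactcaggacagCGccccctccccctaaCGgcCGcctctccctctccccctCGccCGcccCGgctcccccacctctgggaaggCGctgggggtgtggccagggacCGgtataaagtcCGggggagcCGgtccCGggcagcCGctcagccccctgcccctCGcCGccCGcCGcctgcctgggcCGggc
H19 had 6 CpGs and IGFBP5 had 9, below the median of 14 over 35116 regions, and IGFBP4 had 30. The receptor genes lay higher still, with 36 in INSR, 41 in IGF2R and 55 in IGF1R, but so did IGFBP3 with 36. IGFBP6 had 12, and the regions of IGFBP2 had 8, 28 and 6. The 6-base cores CATTGT and CTTTGT, which resemble the site bound by SOX proteins, were searched on both strands. A match was found for IGFBP6 (CTTTGT on the opposite strand, starting at position -218 from the start) and in none of the other 10 regions, against 24.5% of all regions. IGFBP4 held TATAAA at position -29; 11.5% of all regions held these letters on either strand anywhere in the window. No match says only that these letters are not in that window.

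H19, the non-coding RNA of the pair, was about 3.87 times as abundant after SOX2 siRNA. Control replicates 1 to 3 gave 1387, 976 and 1116 H19 counts, and SOX2 siRNA replicates 1 to 3 gave 4800, 4964 and 4494. In CPM these were 42.0, 39.0 and 38.6 against 159, 154 and 150. Every SOX2 siRNA library was far above every control library, and the libraries of a group lay close together. The mean went from 39.9 ± 1.88 to 154 ± 4.34 CPM (SD, n = 3), a log2 fold change of 1.95 (SE 0.0444).

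IGF2, the ligand of the pair, was about 2.43 times as abundant. Its counts were 579, 341 and 352 with control siRNA and 1172, 1083 and 984 with SOX2 siRNA. In CPM these were 17.5, 13.6 and 12.2 against 38.8, 33.5 and 32.9. The groups did not overlap, though control replicate 1 stood above the other 2 controls. The mean went from 14.4 ± 2.78 to 35.1 ± 3.25 CPM (SD, n = 3), a log2 fold change of 1.27 (SE 0.144).

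The level of IGF2 carries a limit from how its reads may have been counted. GENCODE 29 holds 2 overlapping genes with the symbol IGF2, and 73.7% of the exon bases of one are shared with the other or with INS-IGF2 on the same strand. Reads from shared exons can be split or dropped, depending on the counting, which is not stated. The table has 1 row for IGF2, and INS-IGF2 is listed at 0 in all 6 libraries. The same-strand gene AC132217.1, which overlaps 5.3% of the exon bases of IGF2, had 18, 20 and 16 counts in the control and 38, 28 and 26 in the SOX2 siRNA libraries. The antisense gene IGF2-AS had at most 2 counts in any library.

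The difference between the groups was not of the same size for the 2 genes of the locus. The ratio of H19 to IGF2 counts was 2.396, 2.86 and 3.17 in the control and 4.10, 4.58 and 4.57 in the SOX2 siRNA libraries. All 3 SOX2 siRNA ratios lay above all 3 control ratios, with means of 2.81 ± 0.390 and 4.42 ± 0.277 (SD, n = 3). This ratio comes from the contrast by which the pair was chosen and was not tested.

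Within the groups, which the choice of members did not use, H19 and IGF2 stood in the same order. Replicate 1 was the highest library of its group for both genes in both groups, by 0.30 and 0.15 for IGF2 and by 0.08 and 0.04 for H19 (deviation from the group mean of log2 CPM, control then SOX2 siRNA). Replicate 3 was the lowest for both genes in both groups. This order was not particular to the pair, since INSR had it in both groups, and IGF1R, IGFBP2, IGFBP4 and IGFBP6 had it in the SOX2 siRNA group. With 3 libraries in a group, and one sequencing depth and culture behind both values of each library, this is a description. The spread around the group means was 0.21 for IGF2 and 0.06 for H19 (residual SD of log2 CPM), where the median over the 12119 better expressed genes (average log2 CPM 2 or more) was 0.06. IGF2 thus varied more between libraries than 97.0% of those genes, and H19 more than 38.7% of them.

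**Figure D1:**
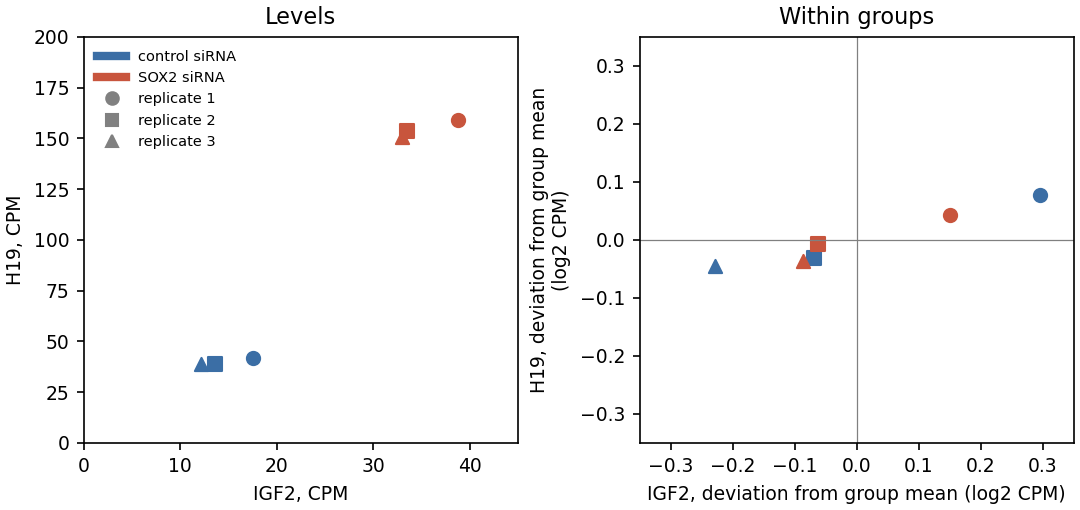
Levels of H19 against IGF2 in CPM (left) and deviations of both from their group means in log2 CPM (right); each point is 1 library, colour gives the group and shape the replicate. On the left the SOX2 siRNA libraries lie apart at 32.9 to 38.8 CPM of IGF2 and 150 to 159 CPM of H19, and on the right replicate 1 of each group is at the upper right.

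The receptor genes showed little difference. IGF1R, the signalling receptor for IGF1 and IGF2, was at 227, 220 and 225 CPM in control and 237, 215 and 206 CPM in SOX2 siRNA libraries. The groups overlapped, with a log2 fold change of -0.03 (SE 0.0451). INSR, the insulin receptor gene, was at 59.9, 58.6 and 57.2 CPM in control and 64.5, 59.6 and 55.3 CPM after SOX2 siRNA, again with overlap (log2 fold change 0.03, SE 0.0521). In both genes the SOX2 siRNA libraries spread more widely than the control libraries, on both sides of them.

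IGF2R, the mannose-6-phosphate receptor that clears IGF2, was at 273, 267 and 279 CPM in control and 302, 289 and 290 CPM after SOX2 siRNA. The groups did not overlap, but the difference was small, at a log2 fold change of 0.10 (SE 0.0348). Per length, the 3 receptor transcripts summed to 44.3 ± 0.615 CPM per kb in control and 45.5 ± 2.28 after SOX2 siRNA (SD, n = 3). Shares of IGF1R and IGF2R in that sum did not overlap between the groups. IGF2R made up 43.9% ± 0.577 in control and 46.0% ± 1.30 after SOX2 siRNA, IGF1R 41.3% ± 0.205 and 39.4% ± 0.892, and INSR 14.8% ± 0.396 and 14.7% ± 0.454. Per kb of the longest annotated transcript, IGF2R thus had the largest share in each group, ahead of IGF1R. That order depends on the length used. With the union of annotated exons as length, IGF1R was at 16.1 and IGF2R at 15.3 CPM per kb in control cells. After SOX2 siRNA IGF2R stayed ahead with that length, at 16.5 against 15.7 CPM per kb.

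The binding protein genes went in different directions. IGFBP5, whose product binds IGFs and the extracellular matrix, had the most counts of the set in control libraries and fewer than IGF1R and IGF2R after SOX2 siRNA. It was at 386, 472 and 331 CPM in control and 183, 189 and 168 CPM in SOX2 siRNA libraries. The groups did not overlap even though the control libraries spread widely. The mean went from 396 ± 71.0 to 180.0 ± 11.2 CPM (SD, n = 3), leaving 45.4% of the control level (log2 fold change -1.14, SE 0.156).

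IGFBP4, a mostly inhibitory binding protein that the protease PAPPA cleaves, was higher after SOX2 siRNA. It was at 43.1, 41.0 and 41.8 CPM in control and 76.1, 73.0 and 71.8 CPM after SOX2 siRNA. Both groups were tight and lay well apart, at 42.0 ± 1.05 and 73.6 ± 2.21 CPM (SD, n = 3; log2 fold change 0.81, SE 0.0443).

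IGFBP2, a binding protein abundant in fetal and embryonal cells, had means that hardly differed. It was at 179, 163 and 187 CPM in control and 201, 167 and 144 CPM after SOX2 siRNA. The SOX2 siRNA libraries spanned the whole control range and more, and the log2 fold change was -0.05 (SE 0.146). STC1, an inhibitor of PAPPA that is not one of the 10, spread in the same order in the SOX2 siRNA libraries, at 47.1, 36.1 and 20.6 CPM, but not in the control libraries, at 34.2, 39.8 and 44.0 CPM. Whether a feature of those cultures underlies both spreads was not tested. IGFBP2 and IGFBP5 are neighbours on chromosome 2, facing each other with their 3′ ends 7.668 kb apart (chr2:216632828-216664436 and chr2:216672105-216695525 in GENCODE 29), so the gene that differed and the one that did not separate of this pair adjoin.

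IGFBP6, a binding protein that prefers IGF2 over IGF1, was scarce. It had 51, 37 and 67 counts in control and 90, 92 and 69 counts after SOX2 siRNA. Control replicate 3, at 2.32 CPM, lay just above SOX2 siRNA replicate 3, at 2.31 CPM, so the groups overlapped (log2 fold change 0.61, SE 0.196). IGFBP3, the main carrier of IGFs in blood, was at the detection floor with 4, 3 and 4 counts in control and 4, 0 and 11 counts after SOX2 siRNA. It was the member that did not pass the filter on low counts, and no fold is given for it.

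Of the 9 members that passed that filter, 4 were higher without overlap of the groups (H19, IGF2, IGF2R and IGFBP4) and 1 was lower (IGFBP5). Over all 17592 genes tested, 41.8% had groups that did not overlap, 21.5% higher and 20.3% lower. Since the members were chosen with this contrast in view, nothing is read from the comparison of those shares. The members just inside and just outside were IGF2R and IGFBP6: IGF2R had no overlap at a log2 fold change of 0.10, while IGFBP6 overlapped at 0.61.

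**Figure D2:**
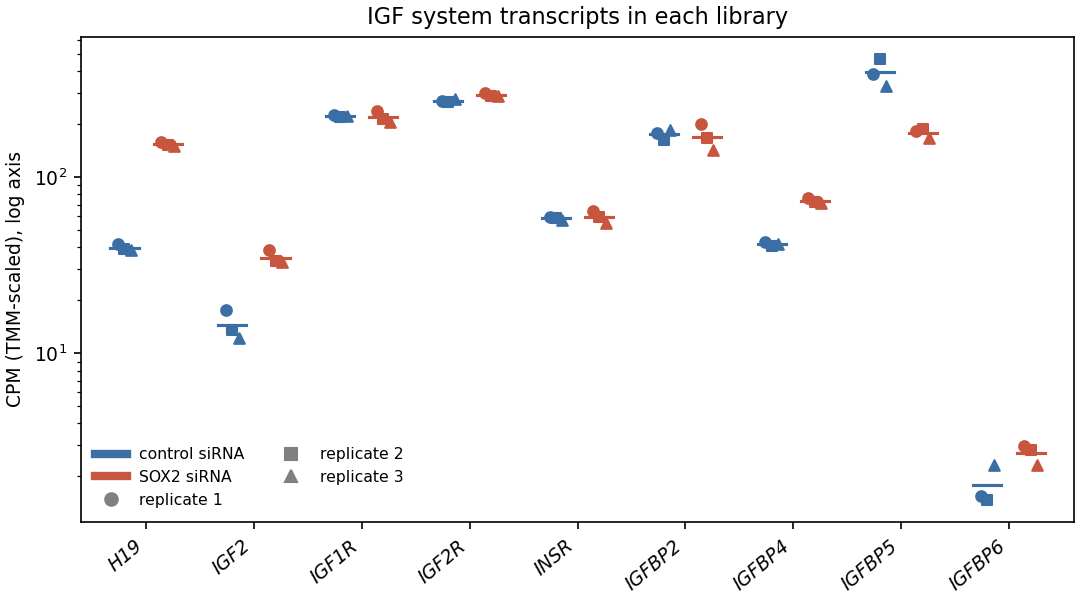
CPM on a log axis of the 9 members that passed the low-count filter, 1 point per library, with colour for the group, shape for the replicate and a line at each group mean. H19, IGF2 and IGFBP4 stand apart upward and IGFBP5 downward, while IGF1R, INSR and IGFBP2 overlap.

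Levels of different genes were compared per kb of the longest annotated transcript without a retained intron. In control cells the order was IGFBP2 at 123 ± 8.30 CPM per kb, IGFBP5 at 63.8 ± 11.4, IGF2R at 19.4 ± 0.432, IGFBP4 at 19.1 ± 0.478, IGF1R at 18.3 ± 0.274, H19 at 16.98 ± 0.801, INSR at 6.54 ± 0.150, IGF2 at 2.59 ± 0.497, IGFBP6 at 1.51 ± 0.397 and IGFBP3 at 0.0524 ± 0.00429 (SD, n = 3). Neighbours in this order did not overlap between libraries except IGF2R and IGFBP4. The ligand was thus among the scarcest members per length and below each receptor, subject to the limit on IGF2 counts given above.

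After SOX2 siRNA the order was IGFBP2 at 118 ± 20.1 CPM per kb, H19 at 65.7 ± 1.85, IGFBP4 at 33.5 ± 1.003, IGFBP5 at 28.96 ± 1.81, IGF2R at 20.9 ± 0.502, IGF1R at 17.9 ± 1.31, INSR at 6.68 ± 0.510, IGF2 at 6.28 ± 0.582, IGFBP6 at 2.30 ± 0.302 and IGFBP3 at 0.0692 ± 0.0773 (SD, n = 3). Here INSR and IGF2 were the neighbours whose libraries overlapped. H19 went from place 6 to place 2, and IGFBP4 passed IGFBP5. These places depend on the length used: with the union of annotated exons, IGFBP5 came before IGFBP2 in control cells and H19 came first after SOX2 siRNA.

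The mix of binding protein transcripts per length therefore differed. IGFBP5 made up 30.8% ± 5.13 of the 5 transcripts in control and 15.9% ± 1.41 after SOX2 siRNA, while IGFBP4 made up 9.22% ± 0.278 and 18.4% ± 1.73 (SD, n = 3). Neither gene's shares overlapped between the groups. IGFBP2 made up 59.2% ± 4.73 and 64.4% ± 3.03, with overlap. The summed level was 207 ± 2.72 CPM per kb in control and 183 ± 22.4 after SOX2 siRNA, and the groups overlapped, because SOX2 siRNA replicate 1 reached 206. That overlap depended on the scale: with the union of exons as length the sum was 119 ± 8.004 in control and 99.2 ± 8.43 CPM per kb after SOX2 siRNA, and without regard to length it was 617 ± 58.2 and 427 ± 39.0 CPM, in both cases lower after SOX2 siRNA with no overlap. With the union of exons as length the shares of IGFBP5 were 51.5% and 28.2%, of IGFBP4 16.1% and 33.8%, and of IGFBP2 31.3% and 35.9%, so the directions did not depend on the length but the leading gene in control cells did.

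**Figure D3:**
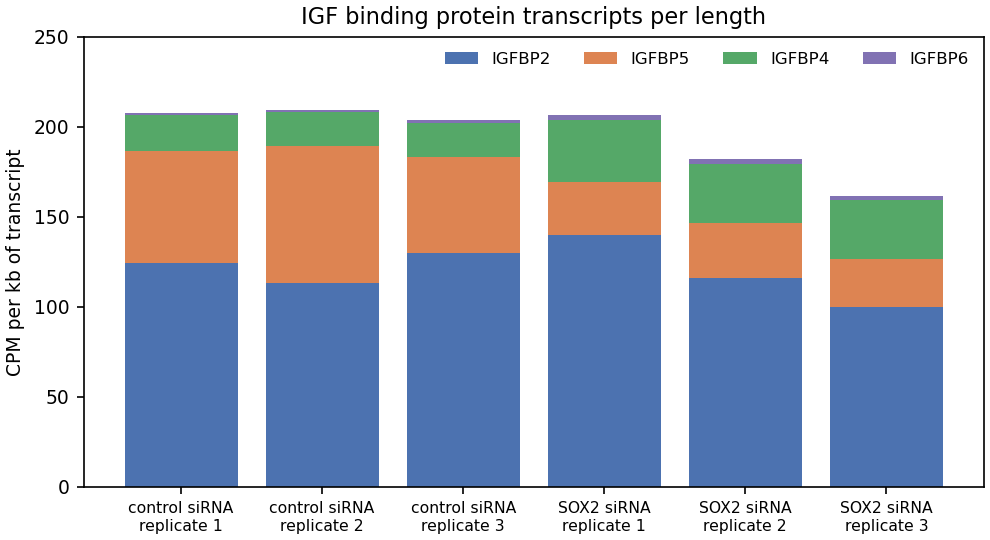
Stacked CPM per kb of transcript of the binding protein genes in each of the 6 libraries; IGFBP3, at most 0.153 CPM per kb, is too small to draw. The IGFBP5 part is smaller and the IGFBP4 part larger in the SOX2 siRNA libraries, while the IGFBP2 part spans 99.8 to 140 CPM per kb there.

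The genes whose pattern over the 6 libraries was nearest to that of H19 were sought among 12118 genes, by the Euclidean distance of log2 CPM centred on each gene's mean. They were KIF26B (distance 0.118), PDGFRB (0.126), DUSP6 (0.157) and SULF1 (0.179), with Pearson r of 0.997 to 0.999 over 6 libraries. KIF26B, a kinesin-family gene of Wnt signalling, went from 26.1 ± 1.16 to 103 ± 1.63 CPM, and PDGFRB, a mesenchymal growth factor receptor gene, from 28.6 ± 0.999 to 106 ± 0.388 CPM (SD, n = 3). For IGF2 the nearest were GSAP (0.150), FN1 (0.311), PGF (0.339) and MYO7A (0.369), with r of 0.974 to 0.997. FN1, the fibronectin gene, went from 473 ± 34.3 to 1194 ± 77.8 CPM and PGF, a placental growth factor gene of the VEGF family, from 4.72 ± 0.679 to 11.8 ± 0.532 CPM (SD, n = 3). The 2 genes of the locus were at a distance of 0.870 from each other (r = 0.977). There were 60 genes nearer to H19 than IGF2 was, and 194 nearer to IGF2 than H19 was. With 2 groups that differ, these distances mostly measure the size of the group difference.

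The other genes of the pathway and of the locus were described with lists compiled by function, with earlier results of these data known. They hold 125 genes, of which 100 passed the low-count filter, and 36 of these (24 higher, 12 lower) passed edgeR's quasi-likelihood test at an adjusted p under 0.05. Exons of other genes overlap many of them on the opposite strand, and strand use in the counting is not stated. That share of 36.0% stands beside 28.2% of all tested genes (14.8% higher and 13.4% lower). The median log2 fold change of the 100 was 0.03, beside -0.00085 for all tested genes.

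IGF1 and INS, the other ligand genes of the family, were at 0 counts in all 6 libraries, so of these 3 ligand genes only IGF2 was detected. Of 7 other ligands, receptors and binding proteins, 2 passed the filter and 1 of those fell (list median -0.24). IGFBPL1, a gene related to the binding proteins, was lowered from 205 ± 3.48 CPM to 138 ± 4.80 CPM (SD, n = 3; log2 fold change -0.57, edgeR adjusted p = 2.89e-09). IGFBP7, which binds IGFs weakly, did not pass at 9.97 and 10.6 CPM, and IGFBP1, IGFALS and INSRR had at most 5 counts in any library.

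Of 8 proteases and protease inhibitors acting on binding proteins, 7 were tested, 1 rose and 1 fell (median -0.18). The share called, 28.6%, was close to the 28.2% of all tested genes. PAPPA, the secreted protease that cleaves IGFBP4, went down from 266 ± 5.36 CPM to 171 ± 7.66 CPM (SD, n = 3; log2 fold change -0.64, edgeR adjusted p = 9.09e-10). Exons of PAPPA-AS1 on the opposite strand overlap it. HTRA1, a secreted serine protease, rose from 0.752 ± 0.184 to 2.32 ± 0.279 CPM (log2 fold change 1.64, edgeR adjusted p = 2.43e-05). PAPPA2 was at 3.09 CPM in both groups, and STC1 and STC2 did not pass.

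Of 7 genes of the mannose-6-phosphate pathway, in which IGF2R also sorts lysosomal enzymes, 4 rose and none fell (median 0.11). In this small list the share called was 57.1%, beside 28.2% of all tested genes. M6PR, the other receptor of that pathway, rose by 0.17 on the log2 scale (edgeR adjusted p = 0.00171), GNPTG by 0.25 (0.00545), NAGPA by 0.32 (0.0217) and GNPTAB by 0.11 (0.0486). GNPTAB lost its call in 9 of 14 alternatives (RLE and upper-quartile scaling, DESeq2, limma-voom, and without any library but SOX2 siRNA replicate 3) and NAGPA in 4 (DESeq2, and without control replicate 2, control replicate 3 or SOX2 siRNA replicate 2), while M6PR and GNPTG passed in all 14. M6PR and GNPTG overlap exons of PHC1 and UNKL on the opposite strand. The count of 4 was thus 2 in those 4 alternatives and 3 in the other 5 in which GNPTAB was lost.

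Of 18 adaptors and brakes at the receptors, 17 were tested, 4 rose and 3 fell (median 0.10). The share called was 41.2%, beside 28.2% of all tested genes. SOCS2, a feedback inhibitor of growth hormone and IGF signalling, was down from 90.6 ± 1.80 CPM to 33.8 ± 1.19 CPM (SD, n = 3; log2 fold change -1.42, edgeR adjusted p = 1.32e-13). GRB10, an imprinted adaptor that restrains IGF1R and INSR, fell by 0.45 on the log2 scale (edgeR adjusted p = 4.76e-08), and IRS2, a docking protein of both receptors, fell by 0.42 (1.51e-05). SOS2, an exchange factor that activates RAS, rose by 0.36 (1.61e-05). Both docking genes passed in opposite directions, since IRS1 rose by 0.25 (edgeR adjusted p = 0.00553).

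Of 29 genes of the PI3K, AKT, mTOR and FOXO branch, 7 rose and 1 fell (median 0.08). The share called, 27.6%, was close to the 28.2% of all tested genes. AKT1, the kinase at its centre, rose by 0.38 on the log2 scale (edgeR adjusted p = 3.59e-06) and the regulatory subunit PIK3R3 by 0.35 (1.69e-05). PHLPP2, a phosphatase that acts on AKT, fell by 0.26 (edgeR adjusted p = 2.73e-04). The other 21 of the 29 did not pass. Without SOX2 siRNA replicate 2 the count of 8 was 5.

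Of 11 regulators of IGF2 or H19 RNA, 3 rose and 2 fell (median 0.06), with 45.5% called beside 28.2% of all tested genes. LIN28A and LIN28B, which block maturation of let-7 microRNAs, rose from 706 ± 3.61 to 1148 ± 10.4 CPM and from 239 ± 10.9 to 359 ± 12.7 CPM, respectively (SD, n = 3; adjusted p by edgeR = 1.80e-11 and 5.09e-09). HMGA2, a chromatin protein gene known as an activator of IGF2 and a let-7 target, rose from 477 ± 15.53 to 629 ± 10.8 CPM (edgeR adjusted p = 1.10e-07). PLAGL1, an imprinted zinc finger gene known to activate both H19 and IGF2, fell by 1.15 on the log2 scale (edgeR adjusted p = 5.71e-12), and PLAG1 did not pass at 58.4 and 59.8 CPM. Of the IGF2 mRNA-binding proteins, IGF2BP3 fell by 0.11 (edgeR adjusted p = 0.0263), and IGF2BP1 and IGF2BP2 did not pass.

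Of 19 genes of the imprinting machinery, 17 were tested, 4 rose and 3 fell (median 0.01). The share called was 41.2%, beside 28.2% of all tested genes. CTCF, whose binding to the control region separates IGF2 from the enhancers on the unmethylated copy, was at 145 and 148 CPM and did not pass (log2 fold change 0.02, SE 0.0359). Nor did TRIM28, ZNF445 and DNMT1, which help to keep imprints. DNMT3B rose by 0.40 on the log2 scale (edgeR adjusted p = 5.79e-07) and UHRF1, the partner of DNMT1, by 0.23 (2.51e-04). Of the TET genes, TET1 fell by 0.36 (edgeR adjusted p = 0.0105), TET2 rose by 0.19 (0.0435) and TET3 did not pass. The cohesin genes split, as STAG2 rose by 0.20 (edgeR adjusted p = 0.00132) and SMC1A fell by 0.14 (0.00419). STAG1 also fell, by 0.13 (edgeR adjusted p = 0.0250), and SMC3 and RAD21 did not pass. DNA methylation was not measured. Without control replicate 2 the count of 7 was 4.

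Of 28 listed neighbours on 11p15.5, 11 passed the filter, 1 rose and 1 fell (median 0.03), which is 18.2% called beside 28.2% of all tested genes. TNNT3, a fast muscle troponin gene between MRPL23 and LSP1, had 45, 22 and 34 counts in control and 177, 113 and 90 counts after SOX2 siRNA. Its groups did not overlap, at 1.14 ± 0.245 and 4.12 ± 1.53 CPM (SD, n = 3; log2 fold change 1.84, edgeR adjusted p = 5.65e-04). MRPL23, a mitochondrial ribosomal protein gene beside H19, fell by 0.30 on the log2 scale (edgeR adjusted p = 0.0114). The adjusted p of MRPL23 was 0.0548 without control replicate 2 and 0.0644 without SOX2 siRNA replicate 2. CDKN1C, KCNQ1OT1 and PHLDA2, imprinted genes of the adjoining domain, did not pass, at log2 fold changes of 0.45, -0.00297 and -0.00345. Nor did CD81, TSSC4, NAP1L4, CTSD, DUSP8 and SLC22A18, with log2 fold changes from -0.09 to 0.29. The groups of CTSD, DUSP8 and NAP1L4, like those of TNNT3, did not overlap and were higher after SOX2 siRNA. Those of MRPL23 did not overlap and were lower. Over all tested genes 21.5% were higher without overlap and 20.3% lower, so nothing is read from these neighbours as a group. With the replicate number as a block CTSD and NAP1L4 passed (edgeR adjusted p = 0.0435 and 0.0475), and NAP1L4 also passed without control replicate 1 (0.0453) or SOX2 siRNA replicate 1 (0.0410).

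**Figure D4:**
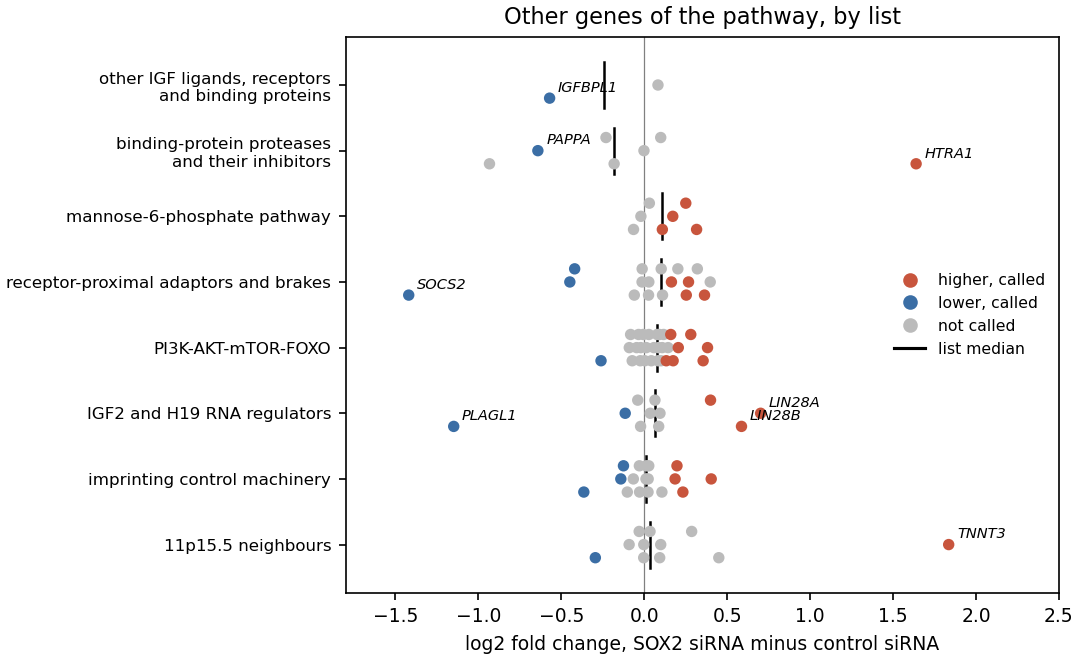
Log2 fold change, SOX2 siRNA minus control siRNA, of each tested gene in the 8 lists; red and blue points passed edgeR's test (higher and lower), grey points did not, and black bars mark list medians. Medians lie between -0.24 and 0.11, and SOCS2, PLAGL1, HTRA1 and TNNT3 lie farthest out among the genes that passed.

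Markers of other lineages known for high IGF2 and H19 were measured beside these results. The 10 yolk sac or hepatic markers, AFP and ALB among them, summed to 2.59 to 7.51 CPM in control and 1.86 to 6.29 CPM after SOX2 siRNA, and none of the 5 tested passed. Of the 10 trophoblast markers, the defining genes CGA, PSG1 and CSH1 were at 0 in all 6 libraries. Their sum of 184 to 186 CPM in control and 140 to 142 CPM after SOX2 siRNA came almost wholly from TFAP2A, which fell, and HAND1 was the marker that rose. The 10 muscle or stromal markers summed to 348 to 395 CPM in control and 523 to 573 CPM after SOX2 siRNA. PDGFRA, PDGFRB and COL1A1 rose. The other tested markers, DES, ACTA2 and LUM, did not pass, at log2 fold changes of -0.19, 0.01 and 0.52. MYOG was at 0 in all libraries, and DCN, MYOD1 and COL3A1 did not pass the low-count filter. Whether the higher sum of this list has a part in the H19 and IGF2 levels was not tested. Of the 8 endothelial markers 2 rose and 5 fell, with sums of 146 to 152 and 121 to 123 CPM, and the 8 blood markers summed to at most 1.41 CPM with none passing.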

How the data were processed

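Sequencing of polyadenylated RNA from 6 PA1 libraries was used. The deposited table holds raw whole-number counts for each gene symbol in every library, as the authors made them, with unequal totals. The submitters' processing notes name bcl2fastq 2.20.0, STAR 2.7.3a, Salmon 0.14.1, DESeq2 1.28.1 and the build GRCh38.p13 without their roles; annotation and strand use are not given in the sources used here. Columns were matched to libraries by description.

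Genes were filtered with edgeR's filterByExpr (minimum count 10) and scaled by TMM, and CPM uses TMM-scaled sizes. Groups were compared by the quasi-likelihood method of edgeR 4.0.16 in R 4.3.3 (robust) with Benjamini-Hochberg adjustment over 17592 genes and a threshold of 0.05. Log2 fold changes and SEs come from that fit. Within-group deviations and distances used log2 CPM with a prior count of 2. Analysis used Python 3.11.15. Transcript lengths and overlaps are from GENCODE 29, and patch releases of GRCh38 share primary coordinates.

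The members and lists were chosen with earlier results of these data known. Named are the 10 members, SOX2, up to 4 genes per list by smallest p, the tested 11p15.5 neighbours and the 4 nearest genes to H19 and to IGF2; other genes named, such as STC1, IRS1 and IGF2BP3, were chosen after their values were seen. One gene that the rule names is not reported here. Lists that overlap (CTSD, INS) were counted once in the total. Tested on simulated counts of 17592 genes with 200 changed, the fit recovered 68.0% at 1.5-fold and 80.0% at 2-fold. In the data 4964 genes were called, and the adjusted threshold depends on that share. The simulated rates therefore need not hold for the data. Alternatives were other scalings, filters and tests (DESeq2 1.42.0, limma 3.58.1), the replicate block, each library left out, and union exon length.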

Additional observations from a re-analysis of the deposited data

How the results depend on the processing

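None of 14 alternatives moved a tested member's log2 fold change by as much as its residual SD between libraries. For a left-out library this was close to fixed in advance, because that SD includes the deviation of the same library. Nothing is read from it, and the ranges are given as a description. H19 ranged from 1.92 to 1.99 on the log2 scale, IGF2 from 1.16 to 1.45, IGFBP4 from 0.78 to 0.83, IGFBP5 from -1.25 to -0.99, IGFBP6 from 0.50 to 0.84 and IGF2R from 0.08 to 0.12, and IGF1R (-0.09 to 0.01), INSR (-0.03 to 0.08) and IGFBP2 (-0.19 to 0.06) changed sign when single libraries were left out. The number of genes called ranged from 3760 to 5212 around 4964.

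The replicate numbers are in the titles of both groups without a stated meaning, and same-numbered libraries did not deviate together (correlations 0.0868, -0.0377 and -0.0311 across genes). With the number as a block 5177 genes were called, and the 11p15.5 count was 4 instead of 2, as CTSD and NAP1L4 passed. Leaving out libraries gave 1 to 3 for that list, 2 to 4 for the mannose-6-phosphate list (2 by DESeq2), 5 to 9 for the PI3K list and 4 to 7 for the imprinting list; the cause was not tested.

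With the union of exons as length, the places in control cells became 4 for IGF1R, 5 for IGF2R, 2 for IGFBP2, 3 for IGFBP4 and 1 for IGFBP5, and after SOX2 siRNA 1 for H19 and 2 for IGFBP2. Shares of binding protein transcripts became 31.3% for IGFBP2, 16.1% for IGFBP4 and 51.5% for IGFBP5 in control cells and 35.9%, 33.8% and 28.2% after SOX2 siRNA, which follows from the longer exon union of IGFBP2. The summed level became 119 CPM per kb in control cells and 99.2 after SOX2 siRNA, with no overlap of the groups. The length alternatives for shares and sums were chosen after seeing the data.

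Some of the neighbours that were not called changed sign, namely CD81, KCNQ1OT1, PHLDA2 and SLC22A18. CDKN1C, DUSP8, CTSD, NAP1L4 and TSSC4 kept theirs in all 14 alternatives. CD81 was -0.00897 without control replicate 2 and ranged up to 0.0685 with libraries left out. KCNQ1OT1 was 0.0042 with no filter and ranged from -0.11 to 0.0926 with libraries left out, being positive without control replicate 2 (0.0661) or SOX2 siRNA replicate 3. PHLDA2 was 0.00249 with no filter and ranged from -0.0692 to 0.0520, being positive without control replicate 1 (0.0473), control replicate 3 (0.0181) or SOX2 siRNA replicate 1. SLC22A18 ranged from -0.40 to 0.16, being positive without control replicate 1 or SOX2 siRNA replicate 2 (0.12). Depth limits IGFBP3, which lies near the floor.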
